A study of Mus musculus with 81 samples.

Results

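The data described here are 12 RNA-seq libraries of P6 cells, the EGFP-negative somatic cells that were sorted from testes of F1 male fetuses at E18.5, and they make up 12 of the 81 samples of the series. They were chosen by their label alone: 5 came from fetuses of F0 dams given DMSO, the vehicle, and 7 from fetuses of dams given 50 nM TBT (tributyltin, an organotin), and all 970384 long terminal repeat (LTR) loci of RepeatMasker in their table were kept. Both groups were OG2 mice, which carry an EGFP transgene under the Pou5f1 promoter that marks germline cells, so P6 is a gate on the absence of EGFP and can hold any somatic cell of the testis. Dams of both groups drank water with carboxymethyl cellulose from a week before mating, and the fetuses themselves were exposed only in utero. The labels do not say whether libraries of 1 group came from separate litters, so the p-values measure the spread between these libraries. Titles of the F1 germline libraries carry paired numbers whose first part several libraries of a group share, and its meaning is not given. If libraries of a group shared a litter, they would not be independent.

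Endogenous retroviruses are remnants of old infections of the germline, and most survive as solitary LTRs or broken copies with an internal region between a pair of LTRs. Many lie in introns of genes, where RNA of the host gene also covers them, while copies outside genes are read from their own or a neighbouring promoter. In somatic cells, histone and DNA methylation keep most young copies silent. TBT binds the nuclear receptors PPARG and RXR, and among the host genes described below Atf3 encodes a transcription factor of the ATF/CREB family that stress and growth signals induce rapidly.

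Each library held between 2824806 and 3830400 counts over all LTR loci. In all libraries, loci in introns took most of these counts, from 85.5% to 90.8%, and loci that overlap an exon took 7.52% to 8.69%. TBT libraries 7 and 8 stood apart: loci outside genes took 6.79% and 6.95% of their counts, against 0.999% to 1.82% in the other 10 libraries, and 66293 and 69303 of the 626329 loci outside genes held a read, against 3603 to 18745. TBT library 11 lay farthest from the rest on the first principal component of the host genes, which held 27.1% of the variance, and DMSO library 12 stood apart in Atf3 and Dnajb4. Counts of 2 libraries of 1 group differed by more than counting error alone (chi-square per degree of freedom of 1.60 to 5.45 over 31 pairs), a measure that takes amplified reads as independent and does not show that the libraries came from separate animals.

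The 3 LTR loci that passed an FDR of 0.05 (limma), 0.00341% of the 88037 tested, are given first (3244, or 3.68%, had an unadjusted p under 0.05, and the likelihood ratio test of edgeR called 46, or 0.0523%), since these show what a locus count holds here. The limma count was 0 without TBT libraries 7 and 8, with a pseudocount of 0.25 unit, and without any 1 of DMSO libraries 1 to 4 or TBT libraries 6, 7 and 9. All 3 lie on chromosome 1 in an intron of Atf3 that runs from 191172483 to 191177230 in the GENCODE annotation of GRCm38, with no annotated exon inside. They are 2 pieces of MTEa, an old element of the ERVL-MaLR class, and 1 piece of RLTR20A4, of the ERVK class, printed from the plus strand of GRCm38 to show how different the 3 sequences are.
MTEa, chr1:191173299-191173422: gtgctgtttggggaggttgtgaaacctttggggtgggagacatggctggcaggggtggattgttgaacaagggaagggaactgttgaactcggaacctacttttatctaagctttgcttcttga
MTEa, chr1:191173608-191173727: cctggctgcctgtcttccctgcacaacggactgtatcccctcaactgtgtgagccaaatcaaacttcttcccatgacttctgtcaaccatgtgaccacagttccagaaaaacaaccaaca
RLTR20A4, chr1:191176899-191176968: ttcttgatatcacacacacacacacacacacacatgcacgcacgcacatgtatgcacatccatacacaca
No word of 12 bases was shared by any pair of the 3 on either strand, and the RLTR20A4 piece is mostly a repeat of CA. Their counts were nevertheless nearly the same: 9 or 10 of the 12 libraries held the identical number of reads at both loci of a pair, and the largest difference was 2 reads.

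The same held for LTR loci in introns at large. Of 53704 pairs of neighbouring tested loci in 1 intron, 42.8% held identical reads in all 12 libraries and 77.0% differed by at most 2 reads in every library. Of 16756 neighbouring pairs in different introns of 1 gene, 2.38% were identical. The sources used here do not give how an alignment that spans an intron was counted. Counting each intron once, at the lower median over its loci, left a smaller number of counts, with 2.83 to 3.00 counts at intronic loci for each one kept. Most neighbours in 1 intron had equal or nearly equal counts, and the rest did not. The following comparisons use the host gene as their unit, so that each gene is tested 1 time. A sum over the loci of a gene still adds the counts they share, so results with each intron counted once are given beside it.

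**Figure D1:**
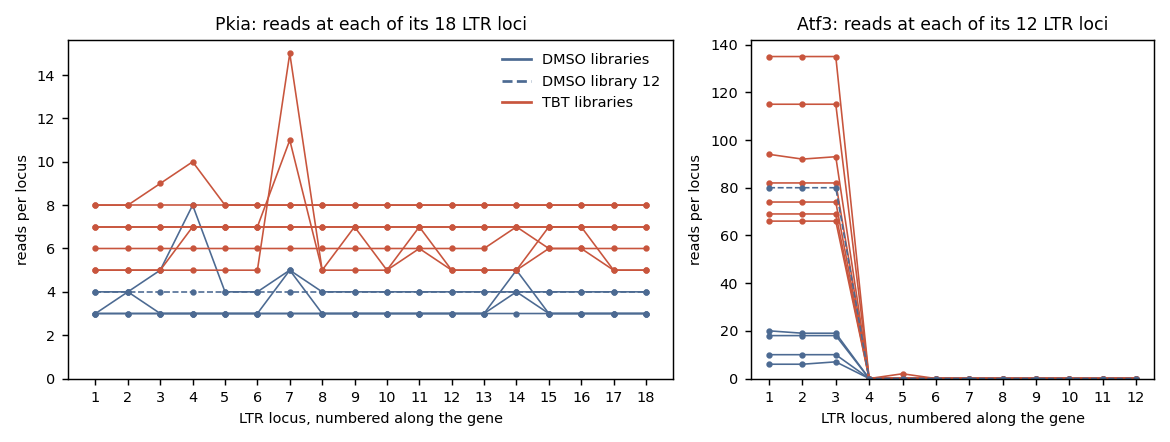
Reads at each LTR locus (y axis, reads per locus) along Pkia (left, 18 loci) and Atf3 (right, 12 loci), 1 line per library, with DMSO in blue, DMSO library 12 dashed and TBT in red. Lines run nearly flat along Pkia, between 3 and 8 reads in most places, and along the first 3 loci of Atf3 (6 to 135 reads), and the remaining 9 Atf3 loci are at or near 0.

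The question of the main comparison was which host genes differ between P6 cells of the TBT and DMSO groups. Among 7816 host genes with a summed mean of at least 20 units (1 unit, the median over libraries of the value of 1 read, was 0.294 CPM), 2 were higher in TBT at an FDR of 0.05 (0.0256% of those tested) and 0 lower (limma), and 331 (4.23%) had an unadjusted p under 0.05, 166 of them higher (2.12%) and 165 lower (2.11%). The 2 were Pkia, which encodes an inhibitor of the cAMP-dependent protein kinase, and Lysmd3, which encodes a LysM domain protein. With each intron counted once, exonic loci left out and a lower filter of 5 units, an alternative chosen after seeing the data, 0 of 7870 host genes passed by limma or by the quasi-likelihood test of edgeR, with 289 (3.67%) and 281 at an unadjusted p under 0.05. Intronic loci alone, summed as before, gave 2 of 7374, and each intron counted once with the filter of 20 units gave 0 of 6001 by limma (215 at an unadjusted p under 0.05), where Pkia was below the filter. Over single introns and loci in other places, 1 of 33862 passed by limma (0.00295%). Without TBT libraries 7 and 8 the sums gave 0 as well. The count was 0 without DMSO library 2 or DMSO library 4, 1 without DMSO library 3 or TBT library 5, 6, 7 or 9, and 5 without DMSO library 12.

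In Pkia, on chromosome 3 from 7366669 to 7445366, the summed signal was 14.3, 17.1, 20.3, 16.2 and 20.6 CPM in DMSO libraries 1, 2, 3, 4 and 12. In the 7 TBT libraries the lowest, median and highest were 34.2, 37.6 and 46.1 CPM. The groups did not overlap, which was so for 25 of the 7816 host genes (0.32%), 15 of them higher in TBT (0.192%). The log2 fold change was 1.12 and its standard error (SE) 0.139, with an FDR of 0.0103 (0.00625 to 0.062 with 1 library left out). Without TBT libraries 7 and 8 the log2 fold change was 1.16, with an FDR of 0.0705. All 18 loci of the gene, of 15 species, were higher, but in each library 11 to 18 of them held the same count. Their agreement is therefore no separate support. Counts per locus were low: the median over the loci was 3, 3, 4, 3 and 4 reads in the DMSO libraries and 5 to 8 in the TBT libraries. Counted once per intron, Pkia held 9 to 12 reads in DMSO and 16 to 24 in TBT libraries, again without overlap, a log2 fold change of 1.07 (FDR 0.158).

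Lysmd3, on chromosome 13 from 81657663 to 81672871, gave 29.4, 24.9, 25.7, 23.7 and 31.2 CPM in the DMSO libraries. The TBT libraries ran from 44.5 through a median of 51.7 to 79.9 CPM. Every TBT library was above every DMSO library, with a log2 fold change of 1.00 (SE 0.152, with an FDR of 0.0467). The call was lost in 9 of the 12 fits with 1 library left out (FDR 0.0341 to 0.25 over the 12), without TBT libraries 7 and 8 (log2 fold change 1.08, FDR 0.117) and by the quasi-likelihood test (FDR 0.0746). All 7 loci were higher, but several of them held equal or nearly equal counts, so this is no separate support. Once per intron the gene held 23 to 40 reads in DMSO and 40 to 76 reads in TBT libraries, a log2 fold change of 0.89 (FDR 0.158).

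Coq10b, which encodes a coenzyme Q-binding protein, and Klf11, a Krüppel-like transcription factor, showed the same separation without passing the FDR. Coq10b had 29.6, 21.3, 19.0, 19.08 and 21.5 CPM in DMSO and 32.9 to 47.2 CPM (median 40.3) in TBT libraries. Its log2 fold change was 0.86 (SE 0.148, with an FDR of 0.117), and once per intron, without TBT libraries 7 and 8, it was the 1 host gene with an FDR under 0.05 (0.98, FDR 0.0426). Klf11 had 24.0 to 33.5 CPM in DMSO and 34.7 to 62.5 CPM in TBT libraries, a log2 fold change of 0.83 (FDR 0.165). No TBT library of either gene was as low as any DMSO library.

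Atf3 and Dnajb4, a co-chaperone of the HSP40 family, differed from these in that DMSO library 12 lay with the TBT group. The summed signal of Atf3 was 15.1, 9.01, 14.0 and 5.49 CPM in DMSO libraries 1 to 4 and 68.7 CPM in DMSO library 12. The TBT libraries ran from 53.8 through 80.8 to 110.4 CPM, 5 of the 7 above all DMSO libraries. The log2 fold change was 2.44 (SE 0.455, with an FDR of 0.165), and it was 2.99 (FDR 0.000576) without DMSO library 12, the control that went against the difference. Leaving out any other single library kept the FDR above 0.05, with 0.45 as the highest and 2.09 as the lowest log2 fold change. Of the 12 Atf3 loci only those 3 in the intron shown above held more than 2 reads in any library. For Dnajb4, DMSO libraries 1 to 4 gave 12.7 to 21.6 CPM, DMSO library 12 gave 47.8 CPM and the TBT libraries 42.1 to 60.1 CPM, with a log2 fold change of 1.24 (FDR 0.244), or 1.52 (FDR 0.00314) without DMSO library 12 and an FDR of up to 0.582 without another library.

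**Figure D2:**
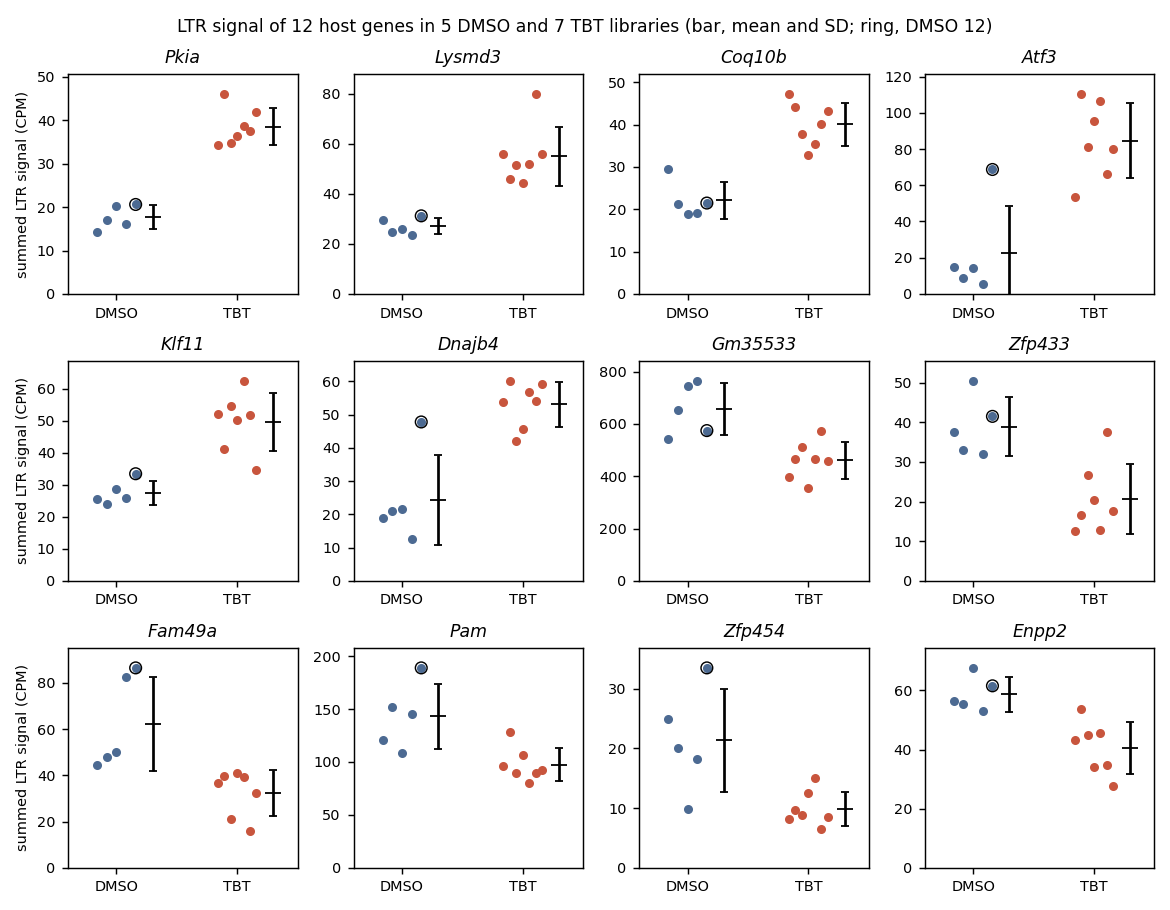
Summed LTR signal (y axis, CPM, from 0) of the 12 host genes of smallest p, 6 higher and 6 lower in TBT, with 1 point per library, the mean and SD as a bar beside each group, and a ring around DMSO library 12. The groups are separate in Pkia, Lysmd3, Coq10b, Klf11 and Fam49a, and the ringed library lies with the TBT libraries in Atf3 and Dnajb4.

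Genes lower in TBT were further from the threshold, with an FDR between 0.683 and 0.842 for the 6 of smallest p. Fam49a had 44.4, 48.03, 50.2, 82.4 and 86.5 CPM in the DMSO libraries and 16.1 to 41.1 CPM (median 36.6) in the TBT libraries, a log2 fold change of −0.95 (standard error 0.264) without overlap. Zfp433 and Zfp454, which encode zinc finger proteins, had log2 fold changes of −0.99 and −1.03, although the 1 Zfp433 locus with enough reads to be tested alone, a MurERV4-int piece, had 0.29. Pam, the enzyme that amidates peptide hormones, and Enpp2, which encodes autotaxin, had −0.54 and −0.55, with 6 of 7 TBT libraries below all DMSO libraries in each. For Zfp433, the means were 39.0 ± 7.46 CPM (SD, n = 5) and 20.6 ± 8.89 CPM (SD, n = 7). Counted once per intron, Zfp433, Gm35533 and Dnajb4 were below the filter. Most of the Dnajb4 signal was at an exonic locus, which that count leaves out (22.5 of 24.4 CPM in DMSO libraries). In Gm35533 the lower median over loci fell to a mean of 6.40 reads in DMSO libraries, although 1 of its intronic loci had 173 CPM there, and its intronic loci summed had a log2 fold change of −0.49 (FDR 0.986). Fam49a, Pam, Zfp454 and Enpp2 had log2 fold changes of −0.68, −0.50, −0.72 and −0.48 with each intron counted once.

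The likelihood ratio test of edgeR, the kind of test the authors used, placed 9 host genes higher in TBT on the sums (0.115% of 7816) and 8 with each intron counted once (0.102% of 7870). The 8 were Atf3, Coq10b, Lysmd3, Pkia, Klf11 and, named after their values were seen, Cchcr1, Pdlim5 and Topors, the last a ligase for ubiquitin and SUMO. Cchcr1 held 5 to 8 reads in the DMSO and 11 to 30 in the TBT libraries, and limma gave it a log2 fold change of 1.39 (FDR 0.0864). Topors held 41 to 72 and 52 to 107 reads, so that its groups overlapped.

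Lower signals were also seen for ERVB4_1B-I_MM-int, the internal region of an ERVK element, though neither its total nor its loci named here passed the FDR by limma. Its total over 1352 loci was 1648, 1943, 2189, 2140 and 1627 CPM in the DMSO libraries and 1425 to 1728 CPM (median 1449) in the TBT libraries. The log2 fold change was −0.32 (standard error 0.0805, unadjusted p 0.00146, FDR 0.635), and 5 of 7 TBT libraries lay below all DMSO libraries. Its 4 strongest loci, named after their values were seen, gave 53.4% of the total in DMSO libraries: a piece in an exon and another in an intron of the lincRNA Gm35533 on chromosome 10, and a pair beside each other on chromosome Y. The exonic piece, at 100142907 to 100144042, had a mean of 475 ± 72.1 CPM (SD, n = 5) in DMSO and 330 ± 55.4 CPM (SD, n = 7) in TBT libraries. The piece on chromosome Y at 59666000 to 59667147, 33232 bases from Gm20871, its nearest gene, did not overlap between the groups, with 80.6 to 95.7 CPM in DMSO and 46.97 to 72.5 CPM in TBT libraries (log2 fold change −0.55, FDR 0.999).

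The chromosome 10 and Y copies share much of their sequence. Of the words of 31 bases in the exonic piece of chromosome 10, 89.9% were found in the Y piece, and the RMER16A3 element that lies directly beside each piece is 108 bases long with no difference between them. It is shown because it is the clearest case.
RMER16A3, chr10:100142799-100142906, and equally chrY:59665902-59666009: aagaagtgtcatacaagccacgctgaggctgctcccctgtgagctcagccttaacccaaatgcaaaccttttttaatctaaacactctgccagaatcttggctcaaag
The counts of these 2 identical pieces were not equal: 0.986 to 3.90 CPM on chromosome 10 and 44.1 to 83.3 CPM on chromosome Y over the 12 libraries. How a read that fits several copies was placed is not given in the sources used here. Gm35533 as a whole had 544 to 765 CPM in DMSO and 357 to 574 CPM in TBT libraries (log2 fold change −0.51, FDR 0.683), and the RMER16A3 total had a log2 fold change of −0.16. An ERVB4_1B-I_MM-int piece on chromosome 17 at 18845292 to 18846580 was separate as well, with 16.6 to 29.5 CPM in DMSO and 8.42 to 15.03 CPM in TBT libraries (log2 fold change −0.81, FDR 0.548 by limma and 0.00867 by the likelihood ratio test).

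Of the 797 tested loci outside genes, 53 (6.65%) were higher and 41 (5.14%) lower at an unadjusted p under 0.05 (limma). By limma or the quasi-likelihood test of edgeR 0 passed the FDR, while its likelihood ratio test called 22 (2.76%), 21 of them higher, and DESeq2 called 0 but gave 508 no adjusted p. Of the 21, 20 had a DMSO mean under the filter of 5 units and so were tested only through their TBT libraries, as were 37 of the 53. Of the 41, 7 had a TBT mean under the filter and so were tested only through their DMSO libraries. These counts are no support for a difference. The locus of smallest p that was higher was a copy of MMVL30-int, the internal region of a VL30 retrotransposon, on chromosome 13 at 55185025 to 55188682, 16266 bases downstream of Fgfr4. It gave 27.5, 30.9, 16.6, 13.3 and 26.1 CPM in the DMSO libraries and 20.05 to 60.5 CPM (median 53.3) in the TBT libraries, with 6 of 7 above all DMSO libraries (log2 fold change 0.98, FDR 0.907 by limma and 0.0115 by the likelihood ratio test). The other 3 higher loci named by p rested on few reads and reached the filter only through the TBT group. An MMERVK9C_I-int copy beside Cyp4f16 was at 0 in 4 DMSO libraries and at 0 to 5.96 CPM in TBT libraries. At 1 ORR1A1-int copy on chromosome 5, at 14981781 to 14983549, all 5 DMSO libraries were at 0 and the highest TBT libraries, 7 and 8, had 12.5 and 12.2 CPM. A second ORR1A1-int copy, at 15479427 to 15481195, had 1.56 and 0.578 CPM in DMSO libraries 1 and 4, 0 in the other 3 and 13.5 and 11.9 CPM in TBT libraries 7 and 8. Of the lower loci, a MurERV4_19-int piece on chromosome 13 at 21937572 to 21938058 had 11.2 to 25.7 CPM in DMSO and 7.81 to 13.9 CPM in TBT libraries, which overlapped (log2 fold change −0.79, FDR 0.999).

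The share of counts in each genomic context was compared by an exact permutation test, and none of 5 contexts passed. Loci more than 10 kb from any gene took 0.368% ± 0.0894 (SD, n = 5) of the counts in DMSO and 1.42% ± 1.61 (SD, n = 7) in TBT libraries (two-sided exact p = 0.189, adjusted over 5 contexts 0.33), and 0.479% ± 0.172 (SD, n = 5) without TBT libraries 7 and 8. The other 4 contexts had the same adjusted p.

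**Figure D3:**
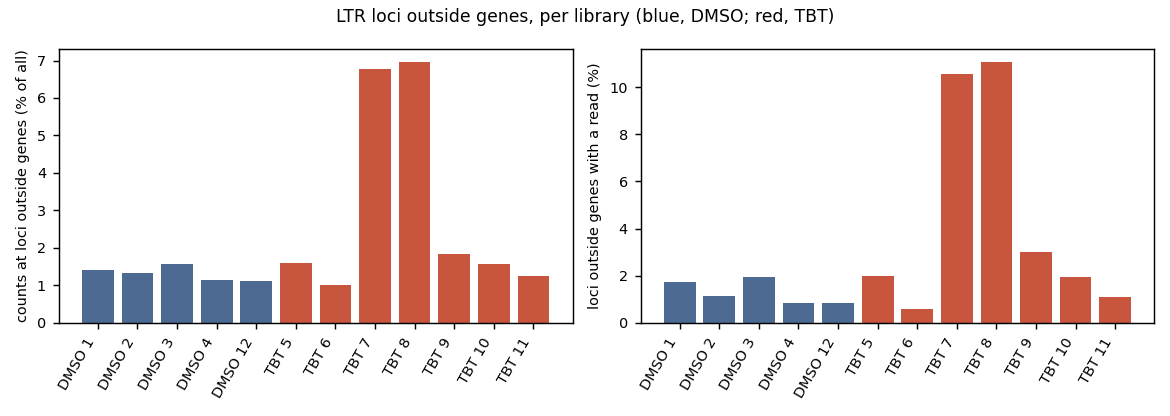
Share of all LTR counts that fell at loci outside genes (left, percent) and share of the loci outside genes that held a read (right, percent), 1 bar per library, DMSO in blue and TBT in red. TBT libraries 7 and 8 reach 6.79% and 6.95% on the left, and no other library passes 1.82%.

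No total of a species passed an FDR of 0.05 among 643 tested, with 41 (6.38%) at an unadjusted p under 0.05 by limma. The edgeR tests gave 0 as well, and DESeq2 placed 1 lower. LTR16D, a species of the ERVL class, was the higher total of smallest p, with 83.2, 78.4, 82.7, 86.4 and 86.5 CPM in DMSO and 91.7 to 100.5 CPM (median 94.5) in TBT libraries, which did not overlap (log2 fold change 0.20, FDR 0.635). Totals that did not overlap were 3 of 643 (0.467%). LTR37-int, RLTR9D2 and IAPLTR3 followed with log2 fold changes of 0.27, 0.26 and 0.38, and LTR40A1 and LTR68 had −0.22 and −0.17.

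Over families, all 28 totals had an FDR above 0.05 (0 called by limma or the quasi-likelihood test, 2, or 7.14%, at an unadjusted p under 0.05). ETn and MusD, young ERVK elements, had a log2 fold change of 0.17, MMERVK10 with RLTR10 0.14 and RMER19 0.10, and the ERVB family had −0.10, MuRRS with MURVY −0.08 and RLTR20 −0.01. With 1 library left out, MuRRS with MURVY ran from −0.17 to −0.012. Without TBT libraries 7 and 8 the first 3 had 0.10, 0.06 and 0.05, and the last 3 had −0.15, −0.13 and 0.02. Restricted to loci outside genes, the median of the 28 log2 fold changes was 0.94, and it was 0.23 without TBT libraries 7 and 8. In 27 of the 28 families these 2 libraries were the highest of the 12 outside genes. For MMERVK10 with RLTR10 outside genes, the mean was 125 CPM in DMSO libraries, and TBT libraries 7 and 8 held 1592 and 1803 CPM. ERVB was lower outside genes with and without them (−0.13 and −0.36).

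**Figure D4:**
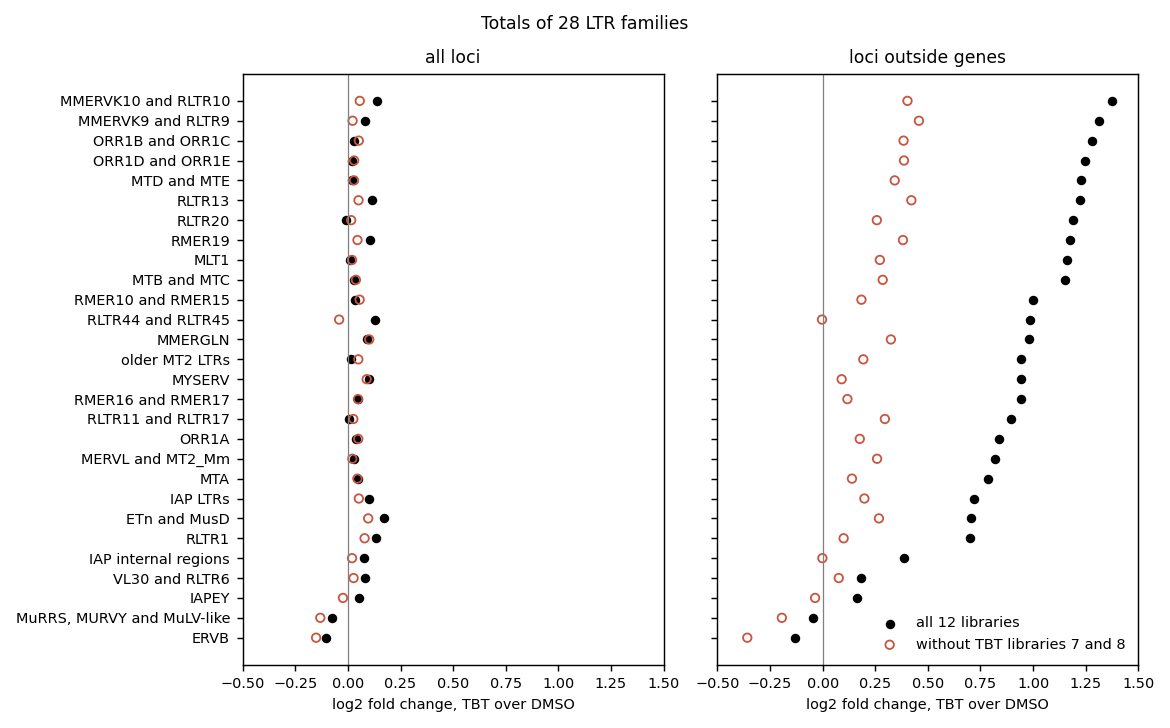
Log2 fold change (x axis, TBT over DMSO) of the totals of 28 LTR families over all loci (left) and over loci outside genes (right), with filled points for all 12 libraries and open points without TBT libraries 7 and 8. Filled points on the right have a median of 0.94 and open points of 0.23, and on the left all points lie near 0.

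The label of the sort was compared with marker genes through the LTR loci they host. Germ cell genes were near 0: 12 of 16 host an LTR locus, and their summed signal was 24.3 to 28.6 CPM in DMSO and 29.2 to 50.3 CPM in TBT libraries, against medians of 16164 CPM in F1 P4 and 10193 CPM in F1 P5 germline cells, which are in a table scaled separately. Dazl, an RNA-binding protein of germ cells, and Pou5f1 had medians of 0.324 and 0 CPM over the 12 libraries. Sertoli genes (8 with a locus) summed to 1929 to 2600 CPM, Leydig genes (8) to 1726 to 2844 CPM, and interstitial and peritubular genes (8) to 2452 to 4043 CPM. In bulk RNA, fewer cells of a type and less RNA per cell cannot be told apart.

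Sums for the markers of other cell types varied between libraries. Macrophage genes (5) summed to 31.2 to 39.0 CPM in DMSO and 40.2 to 87.1 CPM in TBT libraries, which did not overlap. With 1 gene left out, an alternative chosen after seeing the data, the groups overlapped without Adgre1 (15.3 to 28.6 and 17.1 to 41.1 CPM), without Csf1r or without Mrc1. The germ cell sums did not overlap either, but they did without Morc1, which had 17.4 and 13.9 CPM in TBT libraries 7 and 8: the sums were then 22.9 to 28.6 CPM in DMSO and 24.7 to 38.3 CPM in TBT libraries, an alternative chosen after seeing the data. Of the germ cell genes 2 could be tested, Tdrd5 at −0.97 and Piwil2 at −0.004, neither past the FDR. Adgre1, which encodes the macrophage antigen F4/80, had 8.30 to 19.5 CPM in DMSO and 19.96 to 58.4 CPM in TBT libraries (log2 fold change 1.07, FDR 0.683), and Mrc1, a mannose receptor, had 0.92. Ptprc, which encodes the leukocyte antigen CD45, had a log2 fold change of −0.0012, with 9.25 to 14.03 CPM in DMSO and 7.88 to 18.1 CPM in TBT libraries, which overlapped. Endothelial genes (8) summed to 132 to 223 CPM in DMSO and 74.4 to 206 CPM in TBT libraries, with Tek, an angiopoietin receptor, at −1.22, Eng at −0.35, Cdh5 at −0.52, Pecam1 at 0.42 and Emcn at 0.45. Cdh5 had 17.3 CPM in TBT library 11, against 60.2 to 133 CPM in the other libraries. In F1 P4 and P5 germline cells, scaled separately, the macrophage sum had medians of 17.6 and 31.6 CPM and the endothelial sum 105 and 132 CPM. These 2 sums are therefore not particular to macrophages or endothelium. Erythroid genes (3) summed to 2.89 to 55.8 CPM over the 12 libraries. The part of these cells in the results above was not tested.

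**Figure D5:**
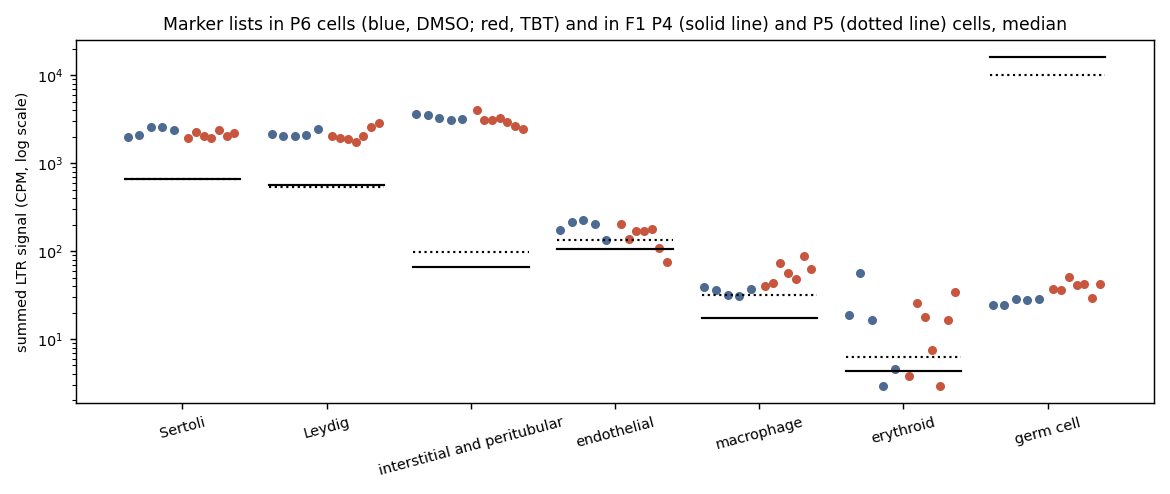
Summed LTR signal (y axis, CPM, log scale) of the host genes of 7 marker lists, 1 point per P6 library, DMSO in blue and TBT in red, with the medians of F1 P4 (solid line) and P5 (dotted line) germline cells of a separately scaled table. Germ cell genes lie at 24.3 to 50.3 CPM in P6 cells and far above them, at 16164 and 10193 CPM, in P4 and P5 cells.

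In 3 of the 8 Leydig genes, Cyp11a1, Cyp17a1 and Fdx1, the libraries numbered 10 to 12 lay above the other 9, and in the remaining 5, among them Nr5a1 and Scarb1, they did not. Cyp11a1, the enzyme that starts steroid synthesis, had 85.9 CPM in DMSO library 12, 151 CPM in TBT library 10 and 208 CPM in TBT library 11, against 27.0 to 71.4 CPM in the other 9 libraries (log2 fold change 0.89, unadjusted p 0.0437, FDR 0.999). Cyp17a1 followed the same order, with 45.2, 82.6 and 109 CPM in those 3 (log2 fold change 0.81, FDR 0.999). Prlr, the prolactin receptor, was lower in TBT with a log2 fold change of −0.43 (FDR 0.999). The 8 Leydig genes together had a median of 0.11, against −0.02 over all 7816 host genes tested. The Sertoli list had a median of −0.16, with Inha, an inhibin subunit, at −0.16, Aard at −0.18 and Gata4 at −0.11. The interstitial and peritubular list had −0.06, led by Lama2, a laminin chain, at −0.45, with Myh11 at −0.23 and Dcn at −0.06. TBT library 11 was the lowest for Lama2 (229 CPM, against 762 to 2126 CPM in the other libraries) and for Myh11 (46.6 CPM, against 87.3 to 183 CPM). It was the highest for Dcn, at 1675 CPM.

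Lists of stress and of retrovirus silencing were read in the same way, and 0 of their members passed the FDR by limma on the sums. Atf3 passed by DESeq2 (FDR 0.0304) and, with each intron counted once, by the likelihood ratio test (FDR 0.0106). Of 30 immediate early genes, 6 host an LTR locus and 2 could be tested, Atf3 and Plk2, the latter with a log2 fold change of 0.56 (FDR 0.999). Of 20 genes of endoplasmic reticulum stress 10 were tested, with a median of −0.02. Herpud1, Dnajc3 and Atf6 had 0.35, 0.20 and −0.23. Of 20 silencing genes 16 were tested, 13 of them lower and 3 higher in TBT (81.2% lower, against 54.3% of all host genes tested), with a median of −0.10 and none at an unadjusted p under 0.05. This lean was not particular to the list. Sertoli genes were lower in 7 of 7 (100%) and interstitial and peritubular genes in 7 of 8 (87.5%), while Leydig genes were at 50% and macrophage genes at 33.3%. The sum of the silencing genes was lowest in TBT library 11, at 669 CPM. Resf1 and Atrx, both needed to keep retroviral copies silent, had −0.42 each, and Morc3 −0.12. Of 26 receptors of TBT and genes of adipogenesis 12 were tested, with a median of −0.20: Zfp423, a factor of preadipocytes, had −0.38 (unadjusted p 0.0361, FDR 0.999), Lpl −0.21 and Ebf1 −0.22.

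Values of F3 P6 cells, 4 DMSO and 5 TBT libraries in a separately scaled table, were set beside those of F1 without a test across the tables. In F3 the group names give descent from the F0 dams through F1 and F2 breeding, and F3 fetuses were not themselves exposed. Pkia, Lysmd3, Coq10b and Klf11 had F3 log2 fold changes of 0.10, −0.05, 0.09 and −0.13, with groups that overlapped. Atf3 had −1.001 (limma, unadjusted p 0.0558, FDR 0.579), with 40.5 to 108 CPM in F3 DMSO and 16.1 to 80.03 CPM in F3 TBT libraries. Dnajb4 had −0.50 (limma, unadjusted p 0.00753, FDR 0.471). The MMVL30-int copy on chromosome 13 had 66.2 to 120 CPM in F3 DMSO and 20.5 to 59.9 CPM in F3 TBT libraries, a log2 fold change of −1.11 where F1 had 0.98. Gm35533 had −0.09.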

How the data were processed

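RNA of sorted P6 cells was amplified as oligo-dT primed cDNA and sequenced by the authors, who trimmed reads with Trim Galore, aligned them with STAR to mm10 (GRCm38) and counted them per RepeatMasker LTR locus with a modified ERVmap. The deposited signal is CPM on the authors' TMM scale of edgeR. Dividing each column by its smallest value above 0 gave whole reads for 100% of values (within 0.01 reads). Totals are sums of counts over loci. How alignments that span an intron were counted is not given in the sources used here.

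From these values, LTR loci that overlap 1 GENCODE gene were summed per host gene, and loci were summed per species and family. log2(value + 1 unit) was tested with limma 3.58.1 (trended, Benjamini-Hochberg FDR of 0.05) where the mean reached 5 units (loci) or 20 units (sums), so a fold change of a low gene is understated. edgeR 4.0.16 and DESeq2 1.42.0 on the recovered reads were alternatives. F3 P6 was fitted in its own table. Host genes named in the text are the 6 of smallest p in each direction, loci outside genes and species the 4 of smallest p in each direction, families 3, and 3 of each gene list. Further members of a list were named after their values were seen. The limma step was tested on simulated data. Members and lists were chosen with earlier results of these data known. No counting intervals are given, because neighbouring loci often hold equal counts and may not be independent. Pieces of sequence were read from GRCm38.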

Additional observations from a re-analysis of the deposited data

Results flagged for a closer look

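Among 106 groups of 5 or 7 libraries, 12 had a library far from the others, where chance gives about 1 in 20 for separate groups. These were not separate: the 3 Atf3 loci, Atf3 itself and the sum of immediate early genes, 5 of the 12, hold largely the same counts of DMSO library 12. DMSO library 12 was the highest of its group for Atf3 (68.7 CPM), for the 3 Atf3 loci (22.9 CPM each, RLTR20A4 at 191176899 and MTEa at 191173608 and 191173299), for Dnajb4 (47.8 CPM), for the sum of immediate early genes (91.3 CPM) and for the MMERVK9C_I-int locus on chromosome 17 (0.286 CPM, the only DMSO library with a read). The same library was the lowest of its group for the total of MuRRS, MURVY and MuLV-like elements (5066 CPM).

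TBT library 11 was the lowest of its group for that total (4714 CPM) and for the sum of retrovirus silencing genes (669 CPM). TBT library 10 was the highest for Lysmd3 (79.9 CPM) and DMSO library 1 for Coq10b (29.6 CPM).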

How the results depend on the processing

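No paired analysis was possible because the DMSO and TBT libraries share no replicate number. The 3 LTR loci called became 0 with a pseudocount of 0.25 unit, 20 with no filter on low values, 46 by the likelihood ratio test of edgeR and 11 by DESeq2, 0 without TBT libraries 7 and 8, and 0 to 14 when 1 library was left out (14 without TBT library 11, 5 without DMSO library 12, and 0 without DMSO library 1, 2, 3 or 4 or TBT library 6, 7 or 9). The 2 host genes became 1 with a pseudocount of 4 units, with no filter or by the quasi-likelihood test of edgeR, 9 by its likelihood ratio test, 17 by DESeq2, 0 without TBT libraries 7 and 8, and 0 to 5 when 1 library was left out. Of the species totals, DESeq2 called 1. Of alternatives chosen after seeing the data, leaving out TBT libraries 7, 8 and 11 gave 27 loci and 0 host genes, and counting each intron once gave 1 locus or intron and 0 host genes by limma, 0 and 0 by the quasi-likelihood test, 36 and 8 by the likelihood ratio test, and 0 and 1 without TBT libraries 7 and 8. With the filter of 20 units the host genes were 0, 0, 6 and 1 under these 4 settings. The differences in share of exonic (0.00586 percentage points) and downstream loci (−0.0062) changed sign without TBT libraries 7 and 8. The cause was not tested. Of the values of single genes, loci, species and families, 803 kept direction and side of the threshold, 57 lost the call, 42 gained one and 5 changed sign, and 3 had no adjusted p by DESeq2. All 5 were of the RLTR20 total, with 0.0225 under median-ratio scaling, 0.0154 without TBT libraries 7 and 8, 1.19 over loci outside genes, and −0.0236 to 0.00143 when 1 library was left out (above 0 without TBT library 7 or 8). Read depth limits low genes: Pkia rested on 9 to 24 reads per library once each intron was counted once.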

Other observations

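Beyond the genes of smallest p, Nfil3, named after its values were seen, held 15 to 22 reads in DMSO libraries 1 to 4, 68 in DMSO library 12 and 40 to 62 in TBT libraries with each intron counted once (log2 fold change 1.18, limma FDR 0.479). It encodes a basic leucine zipper transcription factor, and DMSO library 12 lay above all TBT libraries. Lama2, a laminin chain of basement membranes, was at 229 CPM in TBT library 11 against 762 to 2126 CPM in the other 11 libraries.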
